A study of Mus musculus with 4 samples.

Results

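Interferon-stimulated antiviral genes were followed in primary fibroblasts of mouse embryos (MEFs) between passage 2, when the cultures were growing, and passage 7, when they entered replicative senescence, a lasting arrest of division. The set was a list of 48 genes in 11 role groups, and a gene counted as measured where a probe's design accession was one of its RefSeq transcripts. Of these, 43 matched a probe, out of 17466 genes matched on the arrays, and they were read by 88 probes. No probe matched Mx1, Mx2, Isg15, Ifi203 or Samd9l, which were not analysed here. Members were listed by gene function, with earlier results of these data known.

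Interferons are secreted cytokines that warn cells of viral infection. Cytosolic sensors of viral RNA and DNA switch on interferon genes, and the secreted interferon then acts through its receptors, JAK kinases and transcription factors of the STAT and IRF families to induce a large set of genes that block viral entry, translation and replication. Many of these genes are also expressed at a low level without infection, and several are known to be induced in senescent cells through sensing of cytosolic DNA.

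Passage 2 and passage 7 were each read on 2 Agilent arrays with 1 colour, hybridised with Cy3-labelled RNA. The labels give no strain, genotype or treatment beyond passaging, and both passages were grown in the same serum-containing medium. RNA of 3 independent cultures was pooled before measurement, so the arrays of a passage may be technical repeats and the p-values then measure only the spread between arrays. All 4 arrays lay on 1 slide at passage-specific positions, so that slide position cannot be told apart from passage. The share of spots well above background ran from 65.8% to 72.7% and was lowest for passage 7 replicate 2, where the array's 75th percentile signal was 402 against 963 to 1404 on the other arrays. Of 10 fibroblast markers, 9 matched a probe and all 9 were well above background on all 4 arrays. On the log2 scale 2 of the 9, Pdgfra (-2.54) and Lum (-2.999), fell, where 9.41% of all genes fell. None was called higher. Not called were Col1a1 (1.04), Thy1 (1.07), S100a4 (1.07) and Vim (0.84), which were higher, and Col1a2 (-0.73), Dcn (-0.54) and Col3a1 (-0.06), which were lower. Their summed level, on a linear scale relative to each array's 75th percentile, was 447 and 346 at passage 2 and 552 and 839 at passage 7.

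Because the members share regulation by interferon, promoters of some called members, most with uncalled members of the same group, are shown first. Not every group that held both kinds is printed. Promoters of 35 members, 42 windows in all, were found in a RefSeq table of build GRCm38.p6, each with 250 bases before the transcript start and 50 from it. Members without an entry were Dhx58, Zbp1, Oas2, Mx1, Mx2, Gbp4, Gbp6, Iigp1, Ifi204, Usp18, Parp9, Parp14 and Rtp4. The core of the interferon-stimulated response element (ISRE), bound by complexes that hold STAT2 and IRF9 and by other IRF factors, was searched as GAAA, any 2 bases and GAAA again, on both strands (on the opposite strand it reads TTTC, any 2 bases, TTTC). The gamma-activated site (GAS), bound by STAT dimers, was searched as TTCNNNGAA, which is its own reverse complement. Words were allowed to overlap. Words were allowed to overlap. Words were allowed to overlap. Words were allowed to overlap. Words were allowed to overlap. Stretches of 160 bases ending at the base before the start are printed 5′ to 3′ on the gene's strand, with ISRE and GAS words in capitals.
The first pair holds the gene of the IFIT family that rose and a family member that was not called, at chr19:34583369-34583528 (+) and chr19:34640729-34640888 (+).
Ifit3: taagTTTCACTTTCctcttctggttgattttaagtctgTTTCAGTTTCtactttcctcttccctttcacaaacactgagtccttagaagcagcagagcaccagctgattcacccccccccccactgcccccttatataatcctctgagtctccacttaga
Ifit1: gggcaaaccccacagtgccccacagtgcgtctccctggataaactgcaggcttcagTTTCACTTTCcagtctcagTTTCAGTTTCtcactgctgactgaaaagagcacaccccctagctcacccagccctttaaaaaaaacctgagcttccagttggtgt
The next set holds the immunity-related GTPase that rose, at chr11:48871421-48871580 (-), and 2 members of its group that were not called. Those 2 lie next to each other elsewhere on the chromosome, at chr11:58199396-58199555 (+) and chr11:58214817-58214976 (+).
Irgm1: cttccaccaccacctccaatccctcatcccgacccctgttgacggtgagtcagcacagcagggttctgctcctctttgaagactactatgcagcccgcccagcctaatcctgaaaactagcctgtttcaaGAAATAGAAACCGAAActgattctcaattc
Igtp: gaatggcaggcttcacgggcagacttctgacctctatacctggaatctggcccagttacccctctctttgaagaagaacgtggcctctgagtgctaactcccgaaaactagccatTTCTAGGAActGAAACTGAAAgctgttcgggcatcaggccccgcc
Irgm2: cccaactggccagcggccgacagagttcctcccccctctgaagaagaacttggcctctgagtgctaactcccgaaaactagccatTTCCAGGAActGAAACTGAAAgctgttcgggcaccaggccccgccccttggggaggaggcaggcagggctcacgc
The last set holds 2 genes that fell, Gbp2 at chr3:142620503-142620662 (+) and Ifi205 at chr1:174031756-174031915 (-), with the uncalled Gbp3 at chr3:142559884-142560043 (+).
Gbp2: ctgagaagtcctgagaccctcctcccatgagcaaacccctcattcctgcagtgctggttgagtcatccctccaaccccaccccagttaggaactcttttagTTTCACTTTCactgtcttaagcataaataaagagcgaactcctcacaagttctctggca
Gbp3: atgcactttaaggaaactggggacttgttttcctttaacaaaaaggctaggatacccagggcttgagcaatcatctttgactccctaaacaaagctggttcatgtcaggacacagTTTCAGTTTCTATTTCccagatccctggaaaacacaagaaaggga
Ifi205: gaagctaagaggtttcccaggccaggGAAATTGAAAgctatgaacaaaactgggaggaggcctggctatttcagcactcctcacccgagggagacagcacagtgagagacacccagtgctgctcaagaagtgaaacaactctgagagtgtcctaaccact

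An ISRE word stood in 21 of the 42 member windows, against 1131 of 32851 windows of the whole table (3.44%). A GAS word stood in 11 of 42 (26.2%), against 8.30% of all windows. Counted by gene, an ISRE word was found for 2 of the 2 rising members with a window, 3 of the 6 falling ones and 12 of the 20 that were tested and not called. A GAS word was found for 0 of 2, 0 of 6 and 9 of 20 of the same classes. So the ISRE word was present among members that rose, fell and were not called. In Ifit3 and Ifit1 alike 2 ISRE words preceded the start, at -156 to -147 and -122 to -113 in Ifit3 and at -104 to -95 and -85 to -76 in Ifit1, counted in bases from the start. Irgm1 had 2 overlapping ISRE words at -30 to -21 and -24 to -15 and no GAS word, while Igtp and Irgm2 each had 1 GAS word just before 1 ISRE word. The printed stretches of Igtp and Irgm2, which lie next to each other on chromosome 11, shared a run of 38 identical bases, against 11 for either of them with Irgm1. These matches describe letters in a window and show no binding.

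**Figure D1:**
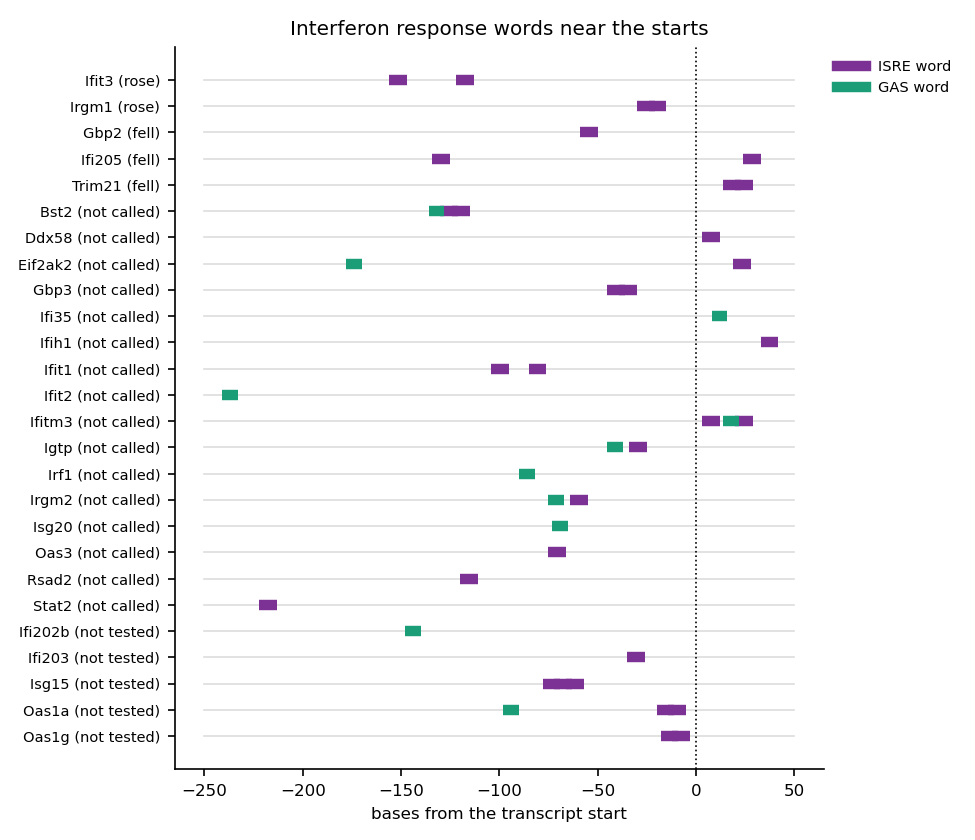
Positions of ISRE words (purple) and GAS words (green) within the 300-base windows of the 26 members that held either; the horizontal axis is in bases from the transcript start, and each member's call at passage 7 is in brackets. ISRE words lie in windows of genes that rose (Ifit3, Irgm1), fell (Gbp2, Ifi205, Trim21) and were not called.

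Most members did not pass the test, and those that did went both ways. A member was tested where its brightest probe exceeded background clearly on each array of 1 passage or of both. Of the 37 members tested, 3 rose at passage 7 (Ifit3, Irgm1 and, by its brightest probe alone, Gbp6), 7 fell (Ifitm1, Ifi204, Oasl2, Ifi205, Gbp2, Trim21 and Irf9) and 27 were not called. A gene was called at a Benjamini-Hochberg adjusted p under 0.05 in limma, over all 13847 genes tested, and a change of at least 2-fold. Of all genes tested, 19.4% were called, 10.0% higher and 9.41% lower, against 27.03% of the members, 8.11% higher and 18.9% lower. These shares were not compared by a test, because the members were chosen with earlier results of these data known. Values are log2 signals set against each array's 75th percentile. Changes are passage 7 minus passage 2 with their standard error over 2 arrays against 2. The median change of the tested members was -0.29, against 0.20 for all genes, so that it lay 0.49 below the median of all genes (-0.49), and 27 of the 37 members lay below that median. The arrays of the 2 passages did not overlap for 28 of the 37 members, against 68.5% of all genes. In bulk RNA, fewer cells of a type and less RNA per cell cannot be told apart.

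By probe, 75 of the 88 member probes were tested, and 5 rose and 12 fell, where 17.2% of all probes were called, 8.72% higher and 8.51% lower. Robust estimates of the SD between same-passage arrays were 0.27 at passage 2 and 0.14 at passage 7 for the members, and 0.33 and 0.19 for all genes. The members called lower numbered 11 when arrays were scaled to their median, with Rsad2, Oasl1, Dtx3l and Iigp1 added, and 3 without passage 7 replicate 1. Member probes called higher and lower numbered 0 and 0 without passage 2 replicate 2, 2 and 4 without passage 7 replicate 1, and 3 and 7 without passage 7 replicate 2. With 1 array left for a passage, its spread is taken from the other passage.

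**Figure D2:**
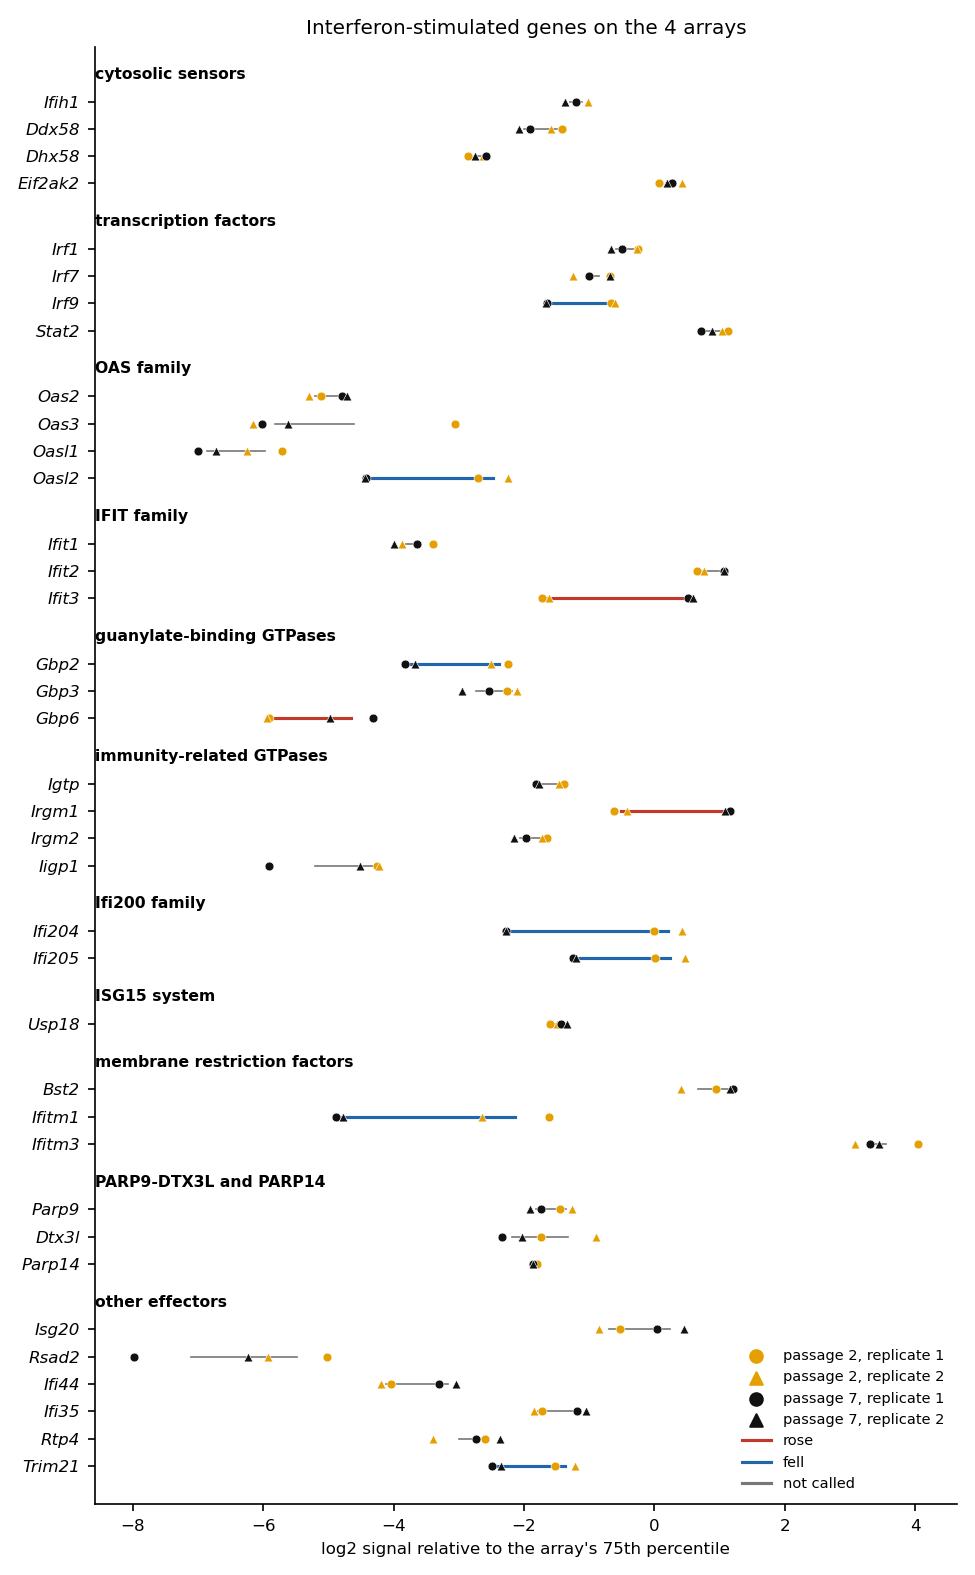
Level of each tested member on each of the 4 arrays, by role group; the horizontal axis is log2 signal minus that of the array's 75th percentile, circles and triangles are replicates 1 and 2, lines join the passage means, and line colour gives the call. Levels of different genes come from different probes and cannot be compared with each other; the widest separation among members that rose is that of Ifit3 and among those that fell that of Ifitm1.

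The cytosolic sensors were not called in any case. They were represented by Ifih1 (MDA5) and Ddx58 (RIG-I), the RNA helicases that start the response to viral RNA, Dhx58 (LGP2), which modulates them, and Eif2ak2 (PKR), the kinase that halts translation on double-stranded RNA. Eif2ak2 read 0.07 and 0.43 at passage 2 and 0.27 and 0.19 at passage 7, a change of -0.02 ± 0.21 (adjusted p = 0.953). Dhx58 read -2.86 and -2.62 at passage 2 and -2.58 and -2.75 at passage 7, a change of 0.08. In both genes the passages overlapped. By the brightest probe, Ifih1 changed by -0.18 and Ddx58 by -0.50 ± 0.19 (adjusted p = 0.119), and only Ddx58 had non-overlapping arrays. The other Ddx58 probes changed by -0.04 and 0.05, with overlap. Another Ifih1 probe changed by -0.49 without overlap and was not called. Another Dhx58 probe read -4.96 and -2.33 on the passage 2 arrays, so its change of 1.02 ± 0.90 rests on passage 2 replicate 1. Of the Ifih1 probes, 1 lost its spot on passage 7 replicate 2 as an outlier and was fitted on 3 arrays. The sensor of Z-form nucleic acid, Zbp1, read -7.19 and -8.25 at passage 2 and -7.66 and -8.28 at passage 7, was not well above background on any array and was not tested.

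Among the transcription factors, Irf9, the DNA-binding subunit of the interferon-activated STAT complex, fell and its partner Stat2 did not pass the test. Irf9 read -0.66 and -0.60 at passage 2 and -1.65 and -1.66 at passage 7. The arrays did not overlap, and the change was -1.02 ± 0.17 (adjusted p = 0.0200), or -1.23 relative to the median of all genes. The other Irf9 probes changed by -0.96 and -0.92, with adjusted p of 0.0407 and 0.0503 in the fit of probes, and were not called because they were under 2-fold or over the threshold. Stat2 read 1.13 and 1.03 at passage 2 and 0.71 and 0.88 at passage 7, a change of -0.29 ± 0.18 (adjusted p = 0.302). Irf1 (-0.32) and Irf7 (0.12), which drive interferon and interferon-induced genes, were not called either. The call of Irf9 held in 6 of 13 other settings. It was lost with quantile normalization (-0.9962) and with the mean of all probes (-0.97), both under 2-fold, with dim probes kept in the fit (adjusted p = 0.0527), and in the normexp settings, where the change ran from -0.37 to -0.87. It was also lost without passage 2 replicate 2 (adjusted p = 0.0513) or passage 7 replicate 1 (0.118) or 2 (0.142).

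The OAS and IFIT effectors gave 1 rise and 1 fall among 7 tested genes. IFIT proteins bind viral RNA caps and translation factors, and Ifit3 was the member that rose most. Ifit3 read -1.73 and -1.62 at passage 2 and 0.52 and 0.59 at passage 7, with no overlap. Its change was 2.23 ± 0.18 (adjusted p = 0.00572), a 4.69-fold rise, or 2.03 relative to the median of all genes. All 3 Ifit3 probes rose, by 2.23, 1.92 and 2.46. It remained called in 12 of 13 other settings, the exception being normexp background correction, and without any 1 of the arrays. The adjacent coding gene Ifit2 read 0.65 and 0.77 at passage 2 and 1.08 and 1.07 at passage 7, without overlap, but its change of 0.36 ± 0.18 was not called (adjusted p = 0.190). Ifit1 read -3.40 and -3.87 at passage 2 and -3.63 and -3.99 at passage 7, with overlap, a change of -0.17 ± 0.26 (adjusted p = 0.642). Whether Ifit3 differed from its family members in change was not tested.

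OAS enzymes make the 2'-5'-linked oligoadenylates that activate RNase L, and the OAS-like proteins Oasl1 and Oasl2 modulate the response. Oasl2 read -2.70 and -2.25 at passage 2 and -4.42 and -4.44 at passage 7, without overlap. It fell by 1.96 on the log2 scale (change -1.96 ± 0.23, adjusted p = 0.0101), which is 3.88-fold lower, and its other probe changed by -1.95. The call held in 10 of 13 other settings and was lost under normexp, where the change was 0.27 (adjusted p = 0.911), with marked backgrounds replaced (-0.72, adjusted p = 0.203) and under normexp with quantile normalization (-0.93, under 2-fold). The neighbouring Oasl1 read -5.71 and -6.24 at passage 2 and -7.00 and -6.72 at passage 7, where it was not well above background. Its change of -0.88 was not called (adjusted p = 0.0693) and ran from -1.18 to 1.75 over the other settings. In the reported setting the passage 2 mean lay at least 1.43-fold above a floor. Such a bound takes the mean of the bright passage over a floor for each dim array, namely the lowest signal there that was well above background, or the probe's own signal if that was higher.

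Oas3 read -3.05 and -6.15 at passage 2 and -6.01 and -5.61 at passage 7, so that passage 2 replicate 1 alone was high, and its change of -1.21 ± 1.04 was not called (adjusted p = 0.428). Without passage 2 replicate 1 it was 0.34, and without passage 2 replicate 2 it was -2.76 and called (adjusted p = 0.0310). Oas2 changed by 0.45 ± 0.18 (adjusted p = 0.137). Oas1a and Oas1g, which encode synthetases of the OAS1 type, were not well above background on any array, with Oas1g at -9.23 and -9.94 at passage 2 and -9.36 and -8.24 at passage 7.

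The interferon-induced GTPases, which coat and disrupt vacuoles and membranes around intracellular pathogens, gave 2 rises and 1 fall among 7 tested by the brightest probe, but the rise of Gbp6 is contradicted by another of its probes. Irgm1, a regulator of the other immunity-related GTPases, read -0.62 and -0.42 at passage 2 and 1.15 and 1.09 at passage 7, without overlap. It rose by 1.64 ± 0.18 (adjusted p = 0.00952), which is 3.11-fold, or 1.44 relative to the median of all genes. Only 1 probe read it. The call held in 12 of 13 other settings, normexp excepted, and without any 1 of the arrays. The other 3 immunity-related GTPases were below their passage 2 means and not called. Igtp changed by -0.37 ± 0.17 (adjusted p = 0.177) and Irgm2 by -0.37 ± 0.18 (adjusted p = 0.197). Iigp1 read -4.25 and -4.22 at passage 2 and -5.90 and -4.51 at passage 7, a change of -0.97 ± 0.49 (adjusted p = 0.204). It was -0.27 without passage 7 replicate 1, the low array, and -1.67 and called without passage 7 replicate 2 (adjusted p = 0.0383). The changes of Igtp and Irgm2 thus had the opposite sign to that of Irgm1, and all 3 genes carry ISRE words before the start. The difference between them was not tested.

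Of the guanylate-binding GTPases, Gbp2 read -2.25 and -2.51 at passage 2 and -3.82 and -3.68 at passage 7, without overlap. It fell by 1.37 on the log2 scale at its only probe (change -1.37 ± 0.20, adjusted p = 0.0144), 2.58-fold lower. Gbp3, close to it on chromosome 3, read -2.27 and -2.10 at passage 2 and -2.53 and -2.95 at passage 7, without overlap, a change of -0.56 ± 0.23 that was not called (adjusted p = 0.137). The call of Gbp2 held in 9 of 13 other settings; the change was 0.42 under normexp (adjusted p = 0.851), -0.54 with marked backgrounds replaced (0.271) and -0.78, under 2-fold, under normexp with quantile normalization. It was also lost without passage 7 replicate 1 (adjusted p = 0.0759) or replicate 2 (0.0636).

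For Gbp6 the probes disagreed, and no direction can be given for the gene. Its brightest probe read -5.91 and -5.94 at passage 2 and -4.31 and -4.98 at passage 7 and rose (1.27 ± 0.28, adjusted p = 0.0358). Another read -6.09 and -5.69 against -4.91 and -5.57 and was not called (0.65 ± 0.32, adjusted p = 0.209 over probes). The remaining probe read -5.76 and -5.46 at passage 2 and -7.26 and -7.13 at passage 7, where it was not well above background, and fell by at least 1.93-fold (adjusted p = 0.0191 over probes). With the mean of all probes the change was 0.12 (adjusted p = 0.718), and the rise of the brightest probe was not called with quantile normalization (adjusted p = 0.120), in the authors' value table (0.173) or without passage 2 replicate 1 (0.0801), passage 2 replicate 2 (0.107) or passage 7 replicate 1 (0.143). Gbp4 read -9.23 and -9.99 at passage 2 and -8.06 and -8.28 at passage 7, not well above background on any array.

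**Figure D3:**
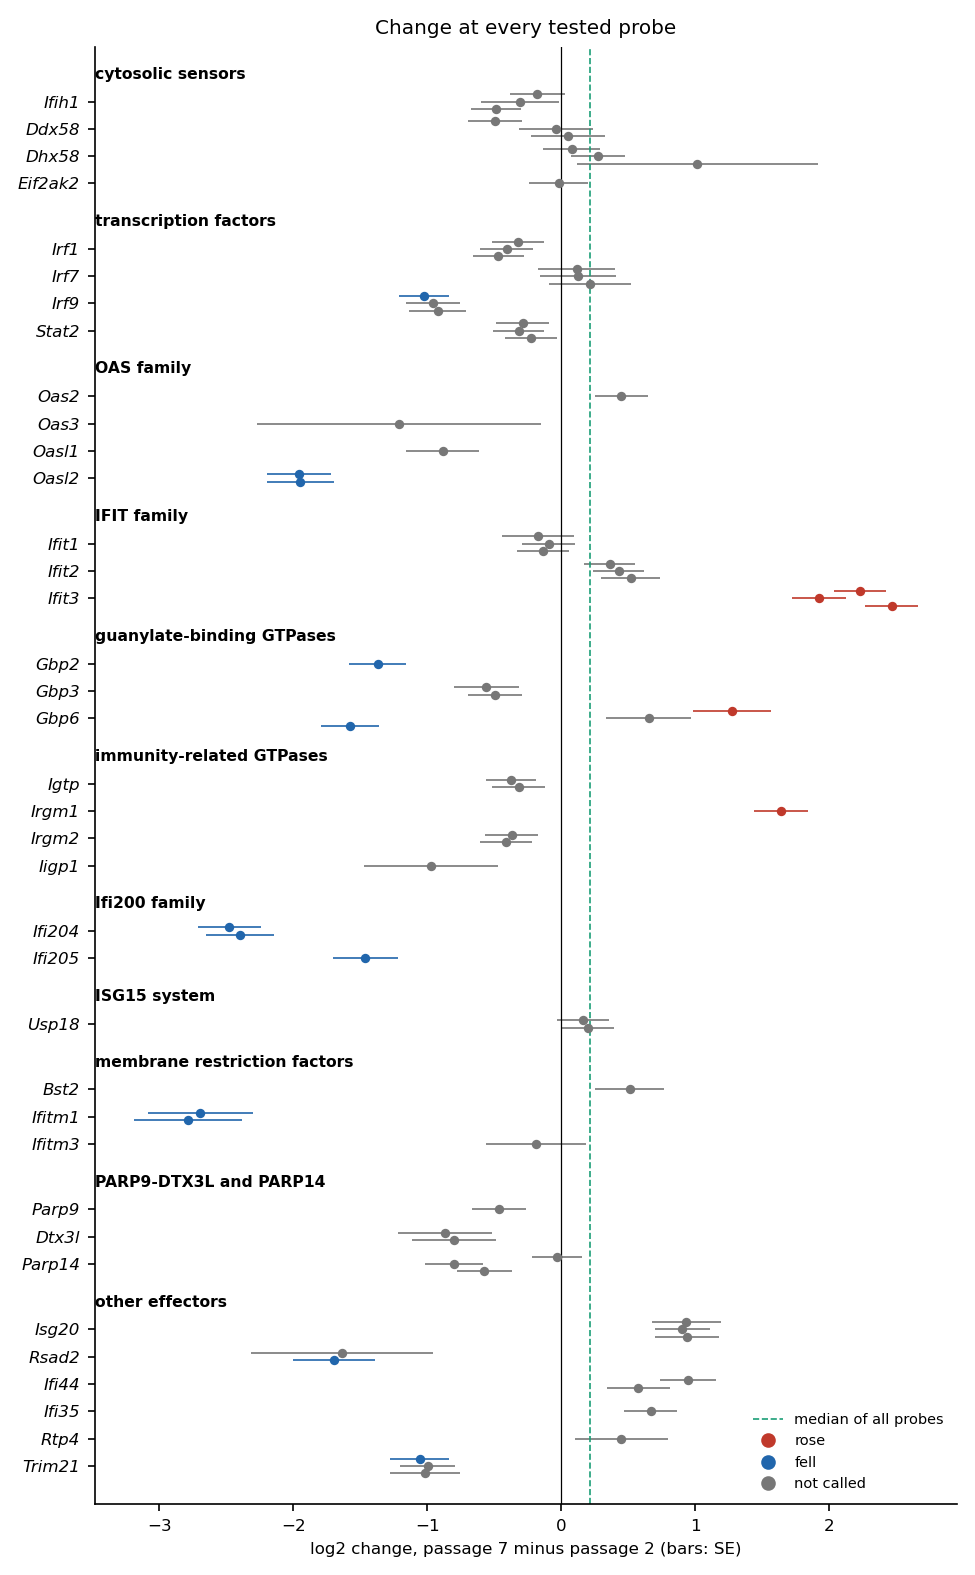
Change of every tested member probe, passage 7 minus passage 2, on the log2 scale with its standard error, from the fit of all probes; the dashed line is the median change of all probes (0.21), and the probes of a gene lie in order of brightness from top to bottom. The probes of Ifit3 rose together and those of Ifi204, Ifitm1 and Oasl2 fell together, while those of Gbp6 lie on both sides of 0.

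Of the 3 genes of the Ifi200 family with a probe, the 2 that could be tested fell. The family makes interferon-inducible proteins of the nucleus and cytosol that include DNA sensors. Ifi204 read -0.01 and 0.42 at passage 2 and -2.27 and -2.28 at passage 7, with no overlap. It fell by 2.48 on the log2 scale (change -2.48 ± 0.22, adjusted p = 0.00657), which is 5.56-fold lower, or -2.68 relative to the median of all genes. A second probe of Ifi204 fell as well, by 2.40 (change -2.40). Ifi205, at its only probe, read 0.01 and 0.47 at passage 2 and -1.24 and -1.20 at passage 7, without overlap. Its change was -1.46 ± 0.23 (adjusted p = 0.0171) or 2.76-fold lower. The third family member with a probe, Ifi202b, read -9.35 and -9.86 at passage 2 and -8.97 and -8.07 at passage 7, not well above background on any array. These genes lie in 1 cluster on chromosome 1 and resemble each other, so that probes can share signal. The call of Ifi205 was lost under normexp (-1.03, adjusted p = 0.563) and without passage 7 replicate 1 (adjusted p = 0.0672) or replicate 2 (0.0683), while that of Ifi204 held without any 1 of the arrays and in 12 of 13 other settings, all but normexp (-1.46, adjusted p = 0.563).

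Ifi200 genes are also expressed by macrophages, and markers of macrophages moved the same way. Of 12 macrophage markers, 10 matched a probe and 9 were tested, of which 4 fell and none rose, where 9.41% of all genes fell: Csf1r (-1.26), Adgre1 (-2.15), Fcgr1 (-2.03) and Mrc1 (-2.63). Fcgr1 read only -6.64 and -6.90 at passage 2 and was not well above background at passage 7, so the size of its fall is uncertain. The other 5 were not called and ran from Laptm5 (-1.11) to Cd14 (-0.02, with overlap). Csf1r and Laptm5 were the brightest of the list. The summed level of the macrophage list, on a linear scale relative to each array's 75th percentile, was 3.90 and 3.24 at passage 2 and 1.56 and 1.82 at passage 7. Ptprc, the pan-leukocyte marker CD45, was not well above background on any array. Epithelial markers also fell in 3 of 7 cases, with sums of 1.21 and 1.05 at passage 2 and 0.295 and 0.434 at passage 7. The 3 were the keratins Krt8 (-1.90), Krt18 (-1.91) and Krt14 (-2.33), the brightest of the list at passage 2. Cdh1 (-3.27) and Epcam (-0.70) were lower and Cldn7 (0.77) and Krt5 (0.35) higher, none of them called. Endothelial markers rose in 2 of 7 (10.0% of all genes rose), Emcn (2.06) and Eng (1.06), with sums of 6.65 and 5.24 against 11.1 and 13.1. Eng was the brightest of the list and made up most of those sums. Tek (-0.91), Cdh5 (-0.71) and Pecam1 (-0.15) were lower and Kdr (0.84) and Tie1 (1.09) higher, none of them called. Of 5 lymphoid markers tested, none was called; their list summed to 1.31 and 0.752 at passage 2 and 0.957 and 1.68 at passage 7, with Cd79a and Ms4a1 not well above background on any array. The part of these cell types in the members that fell or rose was not tested.

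The membrane restriction factors differed among themselves. Ifitm1, which blocks fusion of viruses with the cell membrane, had the largest fall of the tested members in the reported setting. It read -1.62 and -2.65 at passage 2 and -4.88 and -4.78 at passage 7. Passage 2 replicate 2 was the lower of its pair, and the passages did not overlap. The change was -2.69 ± 0.38 (adjusted p = 0.0141), or 6.46-fold lower, and its second probe changed by -2.79. The fall depended on the background correction: it was -1.40 and still called under normexp with quantile normalization, where Ifi204 fell further (-1.82), and -0.16 and not called under normexp alone (adjusted p = 0.954). With marked backgrounds replaced it was -1.20 and not called (adjusted p = 0.147). Its neighbour Ifitm3, which acts in endosomes, read 4.04 and 3.08 at passage 2 and 3.30 and 3.44 at passage 7, with overlap, a change of -0.19 ± 0.36 (adjusted p = 0.719). Bst2 (tetherin), which holds budding virions on the cell, changed by 0.51 ± 0.24 (adjusted p = 0.186). Whether Ifitm1 and Ifitm3 differed in change was not tested.

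The ISG15 system, a ubiquitin-like conjugation pathway, was represented by its protease Usp18 alone. Usp18 read -1.60 and -1.50 at passage 2 and -1.43 and -1.34 at passage 7, a change of 0.16 ± 0.18 (adjusted p = 0.524), which is -0.04 relative to the median of all genes. The ADP-ribosyltransferases Parp9 and Parp14 and the ubiquitin ligase Dtx3l, partner of Parp9, are adjacent genes on chromosome 16 and were not called. Parp9 read -1.45 and -1.26 at passage 2 and -1.74 and -1.90 at passage 7, a change of -0.46 ± 0.19 (adjusted p = 0.138). Parp14 read -1.80 and -1.87 at passage 2 and -1.87 on both arrays of passage 7, a change of -0.03, while its other 2 probes changed by -0.80 and -0.58. Dtx3l changed by -0.87 ± 0.34 (adjusted p = 0.128).

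Of the remaining effectors, Trim21 fell and 5 were tested without a call. Trim21, an intracellular antibody receptor and ubiquitin ligase, read -1.53 and -1.21 at passage 2 and -2.50 and -2.36 at passage 7, without overlap, a change of -1.06 ± 0.21 (adjusted p = 0.0270). Its other probes changed by -0.996 (adjusted p = 0.0396 over probes, under 2-fold) and -1.02 (adjusted p = 0.0617) and were not called. The call held in 8 of 13 other settings; the change was 0.0077 under normexp, -0.61 with marked backgrounds replaced and -0.62 under normexp with quantile normalization, and with dim probes kept the adjusted p was 0.0640. It was lost without passage 2 replicate 2 (adjusted p = 0.0636), passage 7 replicate 1 (0.140) or passage 7 replicate 2 (0.123).

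Rsad2 (viperin), which makes a chain-terminating nucleotide, read -5.03 and -5.93 at passage 2 and -7.99 and -6.24 at passage 7, where it was not well above background. In the reported setting the passage 2 mean lay at least 2.12-fold above the floor. The fitted change of -1.64 ± 0.67 was not called (adjusted p = 0.137). The change of Rsad2 ran from -1.92 to 1.58 over the other settings, and from -2.51 to -0.76 with 1 array left out. Its other probe read -5.98 and -5.80 against -7.94 and -7.23, at least 1.59-fold higher at passage 2, and fell in the fit of probes (adjusted p = 0.0305). On the other side, Isg20, an RNA exonuclease, read -0.52 and -0.85 at passage 2 and 0.04 and 0.45 at passage 7, a change of 0.93 ± 0.24 (adjusted p = 0.0535). Ifi44 changed by 0.94 ± 0.20 (adjusted p = 0.0319), under 2-fold, and Ifi35 by 0.67 ± 0.18 (adjusted p = 0.0595). Rtp4 overlapped between passages, with a change of 0.45. The pro-apoptotic Xaf1 read -9.32 and -8.53 at passage 2 and -9.13 and -8.02 at passage 7, not well above background on any array.

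**Figure D4:**
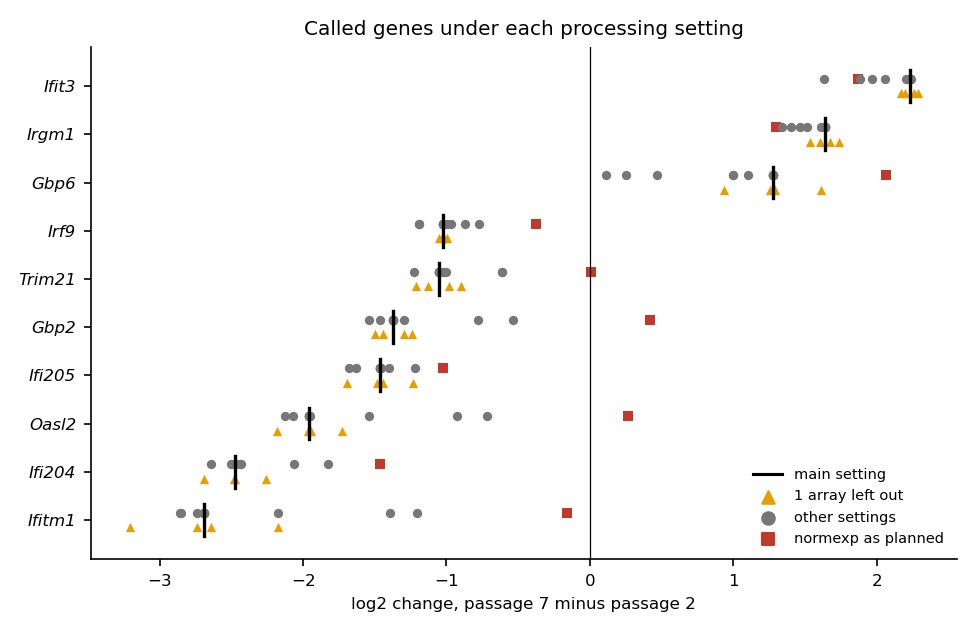
Change of the 10 called members, passage 7 minus passage 2 on the log2 scale, with the reported setting (black bar), normexp background correction (red square), other settings (grey circles) and fits with 1 array left out (orange triangles). Gbp2, Oasl2 and Trim21 cross 0 under normexp (0.42, 0.27 and 0.0077). The other called members stay on their side of 0 in all settings shown, though Ifitm1 (-0.16) and Gbp6 (0.12) come close to it.

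The genes of interferon production and signalling were read beside the effectors. Of 43 genes listed, 42 matched a probe and 36 were tested; 4 rose and 2 fell (16.7% called, against 19.4% of all genes), and their median change was -0.10, below the 0.20 of all genes. The ligands were mostly undetected. Ifnb1 read -9.25 and -9.77 at passage 2 and -9.05 and -7.99 at passage 7, not well above background on any array, and of 6 ligand genes only Ifna2 was tested, without a call. The receptor chains of interferon-β were present in both passages. Ifnar1 read 1.25 and 1.12 at passage 2 and 0.77 and 0.78 at passage 7, a change of -0.41 ± 0.18 (adjusted p = 0.154), and Ifnar2 changed by -0.21 ± 0.20 (adjusted p = 0.480).

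Of the 9 receptors and kinases tested, 3 rose and 1 fell, where 10.0% of all genes rose and 9.41% fell. The 3 that rose were receptor chains of the other interferon types. A further such chain, Ifngr1, was not called (0.53 ± 0.17, adjusted p = 0.0895). Ifngr2, the signalling chain for interferon-γ, read 2.45 and 2.34 at passage 2 and 3.59 and 3.70 at passage 7 and rose by 1.25 ± 0.18 (adjusted p = 0.0144). Both chains of the interferon-λ receptor rose, Il10rb by 1.20 ± 0.19 (adjusted p = 0.0181) and Ifnlr1 by 1.39 ± 0.18 (adjusted p = 0.0124). The kinase Jak2 fell, from -1.97 and -1.19 to -2.74 and -3.11 (change -1.34 ± 0.33, adjusted p = 0.0466), as did Socs3, the feedback inhibitor of cytokine receptors (change -1.25 ± 0.18, adjusted p = 0.0144). The call of Jak2 held in 8 of 13 other settings, where its change ran from -1.51 to -0.08. In the fit of probes the same Jak2 probe was not called (adjusted p = 0.0607), while its other probe fell (-1.51, adjusted p = 0.0424). Rnaseh2c, a subunit of the nuclease that clears RNA-DNA hybrids, rose by 1.44 ± 0.29 (adjusted p = 0.0293). In the authors' value table Ifngr2, Il10rb and Ifnlr1 were not called, and none of the pathway genes was called without passage 7 replicate 1 or without passage 7 replicate 2, against 8 called higher without passage 2 replicate 1.

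None of the IRF factors of the pathway list and none of the 9 tested sensing adaptors and kinases was called. Just short of 2-fold, and named here after their values were seen, were the DNA sensor Cgas (-0.998 ± 0.193, adjusted p = 0.0267) and the interferon-inducing factor Irf3 (0.99 ± 0.18, adjusted p = 0.0233). The value of Irf3 rests on 1 probe. Its other 2 probes changed by -0.37 and 0.11, but they were dim and at passage 7 well above background on 1 and 0 arrays, so they are a weak check on it. The DNA sensor Aim2 was not well above background on any array, and no probe matched Sting1.

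**Figure D5:**
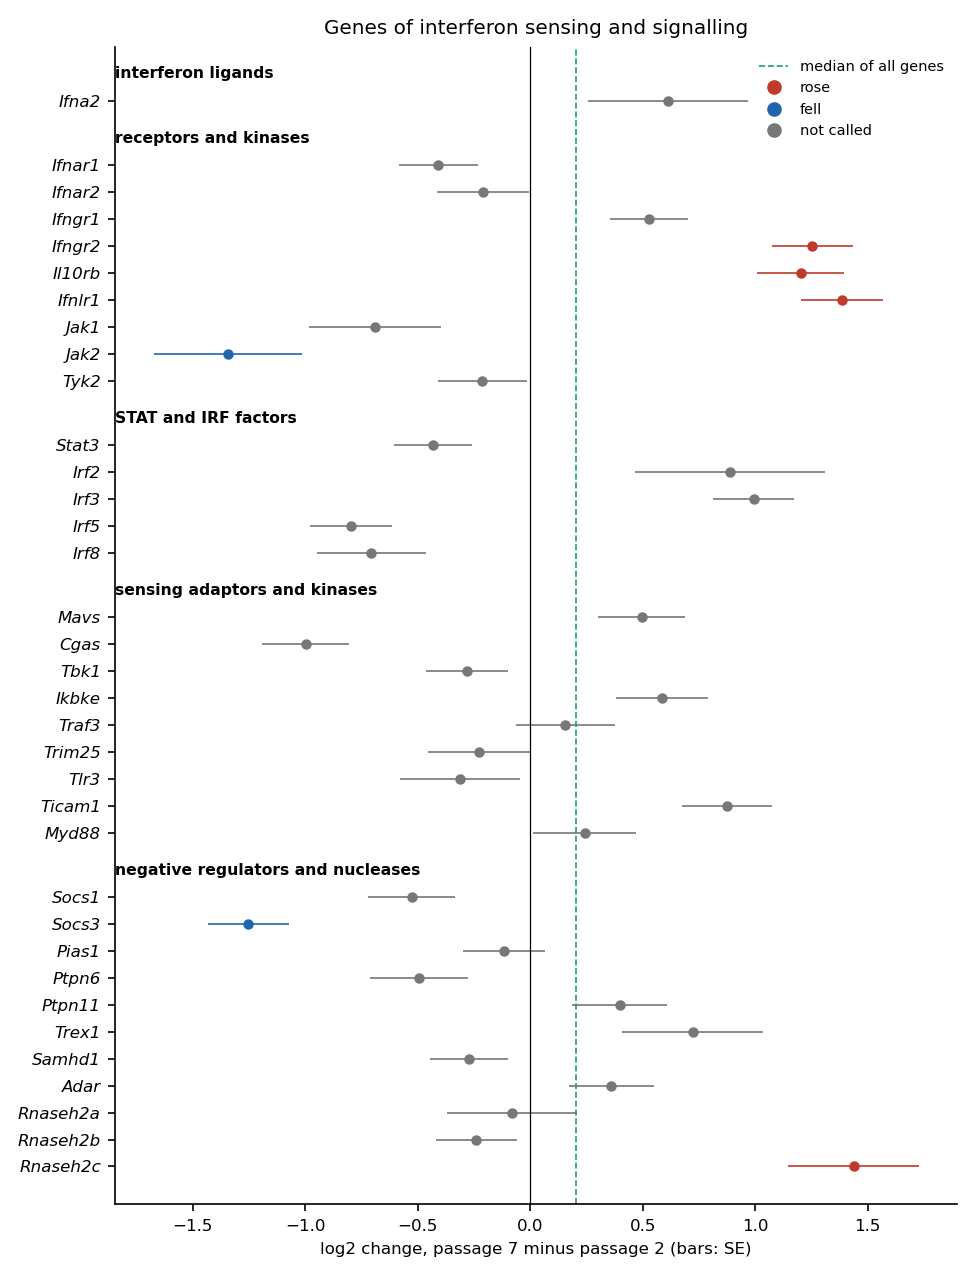
Change of tested genes of interferon sensing and signalling, passage 7 minus passage 2 on the log2 scale with its standard error, by role; the dashed line is the median change of all genes (0.20). The interferon-γ and interferon-λ receptor chains Ifngr2, Il10rb and Ifnlr1 lie to the right with Rnaseh2c, and Jak2 and Socs3 to the left.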

How the data were processed

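Total RNA of mouse embryonic fibroblasts was measured on custom Agilent arrays, 2 per passage. Per the file headers, images were read by Feature Extraction 10.5.1.1. The deposited spot files hold median and background intensity, a processed intensity already background-subtracted, and flags; dim probes are therefore sensitive to the background correction. The authors' value table is close to log2 median intensity (r from 0.9986 to 1.000 across spots; column medians 6.42, 6.41, 6.34 and 6.24); how it was centred and background-corrected is unknown. The submitters' processing notes name limma, without a version.

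From the spot files, processed signals were taken to log2 and reduced by the 75th percentile of each array's non-control spots, with outlier spots left out and spots of 1 probe averaged. Probes were named through RefSeq accessions with a mouse gene table of GRCm38.p6 (31089 of 31850 matched). A gene was read by its brightest probe and kept if it exceeded background clearly on each array of 1 passage or of both. Tests were two-sided, with limma 3.58.1 (lmFit, eBayes) in R 4.3.3, all 4 arrays, no covariate and Benjamini-Hochberg adjustment; a second fit ran over 30868 probes. The fit of genes was tested on simulated data. An exact permutation test of 2 arrays against 2 cannot go below p = 0.333, so none was used for single genes.

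Values of all 4 arrays are given for each member called, each whose probes fell on different sides of a call, each well above background in 1 passage only, and the members with the brightest and dimmest probe of a role group; pathway genes are named if called, with Ifnb1, Ifnar1 and Ifnar2; the result of 1 further gene that this rule takes is not reported here. The members and lists were chosen with earlier results of these data known. Alternatives were other background corrections, scalings, filters, probe choices, variance models and thresholds, a block for the replicate number, and omission of each array in turn. Normexp (offset 50) was run on the median intensity, since the files used here list no mean signal.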

Additional observations from a re-analysis of the deposited data

How the results depend on the processing

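The median change of all genes was 0.20 in the reported scaling, 0.024 with quantile normalization, 0.033 with median scaling, -0.063 in the authors' value table and 0.49 with normexp, and the share of calls that were higher was 51.5%, 42.3%, 41.3% and 35.3% in the first 4. The member median lay below that of all genes in each, by 0.49 as reported (-0.49) and by least with normexp (-0.07). Of 627 member values under alternatives, 566 stayed on their side of the threshold, 45 lost the call, 13 gained one and 3 called members turned direction; members not called in the reported setting changed sign in 38 of the 627.

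Normexp called 0 genes, members, member probes or pathway genes in either direction with limma (666 genes at an unadjusted p under 0.05), and turned Gbp2 (0.42, adjusted p = 0.851), Oasl2 (0.27, 0.911) and Trim21 (0.0077, 0.996). With marked backgrounds replaced, chosen after seeing the data, normexp called 712 genes higher and 476 lower, 2 members and 2 member probes lower, and 1 pathway gene each way. Normexp with quantile normalization called 548 genes higher and 717 lower, 3 members and 5 member probes lower, and 1 pathway gene each way. The cause was not tested. Median scaling called 11 members lower. The authors' table called 732 genes and 1 pathway gene higher. Without a filter on dim probes, 897 genes were higher, 2 member probes each way were called and 1 pathway gene was lower. With no fold minimum, 4 pathway genes were lower.

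With the replicate number as a block, 501 genes rose and 626 fell, 3 members were lower (2 higher; Gbp2, Gbp6, Ifi205, Irf9 and Trim21 lost the call), and 0 member probes and 0 pathway genes were called. The numbers are not known to pair cultures: replicate differences of the passages correlated at -0.17 across genes. The crossed pairing, chosen after seeing the data, called 1661 genes higher and 1404 lower, with 3 members higher and 8 lower.

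Leaving out 1 array gave 457 to 2074 genes higher and 677 to 1387 lower, 2 to 3 members higher and 3 to 8 lower, 0 to 4 member probes higher and 0 to 12 lower, and 0 to 8 pathway genes higher and 0 to 2 lower. Dim members are limited by signal: passage 7 replicate 2 was the dimmest array, and 6 members whose brightest probe was not well above background on any array could not be tested.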
